A study of Mus musculus with 9 samples.

Results

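The phase II conjugation enzymes described here are the glutathione S-transferases, the UDP-glucuronosyltransferases and the sulfotransferases of the mouse. Members were the rows of the count table whose symbol begins with Gsta, Gstk, Gstm, Gsto, Gstp, Gstt, Gstz, Mgst or Sult followed by a number, or with Ugt1a or Ugt2, and symbols of pseudogenes were left out. The rule used no measured value and found 63 members among the 46095 symbols of the table. They comprised 21 cytosolic Gst genes, 3 membrane-bound Mgst genes, 18 Ugt genes and 21 Sult genes.

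RNA-seq was carried out on intestinal epithelial cells (IECs) released with 8 mM EDTA from the colon. The 4 Smad4 Vil-KO libraries came from mice in which Villin-Cre, which is active throughout the intestinal epithelium, deletes floxed Smad4, and the other 5 from Smad4 Vil-KO;Setd2 Vil-KO mice (double knockout), in which it deletes floxed Setd2 as well. Smad4 encodes the shared mediator of TGF-β signalling and Setd2 the methyltransferase that places H3K36me3. Both groups thus lacked Smad4 and carried Cre, so that the comparison concerns the added loss of Setd2 and no library of unmodified epithelium was analysed here. All mice were on the C57BL/6j background, received the carcinogen azoxymethane (AOM, 10 mg/kg) at 8 weeks of age and then 2% dextran sodium sulphate (DSS) in the drinking water, and were sampled at 10 days. The sex of the mice was not given in the sources used here.

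Phase II enzymes attach a polar group to a reactive or poorly soluble compound, after which the conjugate leaves the cell through export pumps. Glutathione S-transferases use glutathione, UDP-glucuronosyltransferases use UDP-glucuronic acid and sulfotransferases use the sulfate donor PAPS. In the gut epithelium these enzymes act on bilirubin, steroids, dietary compounds and lipid peroxidation products, and the receptors Ahr and Pxr and the antioxidant regulator Nrf2 are known to control many of them.

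The table gave between 12487129 and 17120202 counts per library, and 1 count equalled 0.0593 to 0.0793 CPM, the unit of level used here (counts relative to the library total after TMM scaling). Setd2 read 118, 120, 99.0 and 114 CPM in Smad4 Vil-KO and 57.7, 86.9, 55.6, 53.8 and 75.9 CPM in the double knockout. Setd2 was thus lower in all 5 double-knockout libraries (log2 fold change -0.77, SE 0.14, adjusted p = 0.00756, quasi-likelihood test of edgeR, Benjamini-Hochberg adjusted across 14593 genes). Smad4 transcripts, which both groups should carry without the deleted part, did not pass (log2 fold change 0.13, SE 0.33, adjusted p = 0.819 in the same test), and a count per gene cannot show the deleted part, so that Smad4 does not check the labels. Y-linked genes gave 4907, 4745 and 3857 counts in double-knockout libraries 1, 2 and 5 and at most 28 counts in the other 6 libraries, so that all 3 libraries with such counts were of 1 genotype. Double-knockout libraries 1 and 2 stood apart from libraries 3, 4 and 5 over all genes, with a chi-square per gene of 42.1 to 63.1 across these pairs against 18.6 between libraries 1 and 2 and 9.22 to 26.9 among the other three. Smad4 Vil-KO library 1 also stood apart, at 25.2 to 38.7 from the other Smad4 Vil-KO libraries against 10.8 to 11.9 among these. Pan-epithelial markers summed to 10026 to 11275 CPM in Smad4 Vil-KO and 9750 to 11502 CPM in the double knockout, and leukocyte markers to 52.9 to 148 and 48.2 to 103 CPM.

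The promoters of the 6 members that differed between the genotypes are shown so that their motifs can be set beside their levels. Each sequence is the 250 bases before an annotated start, read 5′ to 3′ on the strand of the gene, from RefSeq on GRCm38.p6. The positions are chr9:78230419-78230668 (plus strand) for Gsta1, chr9:78347146-78347395 (minus strand) for Gsta2, chr1:21240335-21240584 (plus) for Gsta3, chr6:138140277-138140526 (plus) for the first of 2 annotated starts of Mgst1, chr1:88211709-88211958 (plus) for Ugt1a1 and chr5:87000610-87000859 (plus) for Ugt2b35. Capitals mark a match, on either strand, to the antioxidant response element core TGACNNNGC, the xenobiotic response element core GCGTG, the HNF1 motif GTTAAT, the HNF4 motif CAAAGTCC or the GATA motif AGATAA, and no marked letters belong to more than 1 motif. The capitals at the end of Gsta1 are the start of a GCGTG that runs past the transcription start.
Gsta1: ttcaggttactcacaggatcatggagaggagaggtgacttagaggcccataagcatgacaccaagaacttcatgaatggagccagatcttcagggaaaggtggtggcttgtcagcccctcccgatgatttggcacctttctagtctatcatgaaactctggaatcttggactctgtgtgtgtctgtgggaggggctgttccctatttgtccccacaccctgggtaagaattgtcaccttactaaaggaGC
Gsta2: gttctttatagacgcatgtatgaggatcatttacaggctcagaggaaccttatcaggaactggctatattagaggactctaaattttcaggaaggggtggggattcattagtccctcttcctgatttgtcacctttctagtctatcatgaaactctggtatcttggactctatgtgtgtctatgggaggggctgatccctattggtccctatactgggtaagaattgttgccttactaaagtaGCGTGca
Gsta3: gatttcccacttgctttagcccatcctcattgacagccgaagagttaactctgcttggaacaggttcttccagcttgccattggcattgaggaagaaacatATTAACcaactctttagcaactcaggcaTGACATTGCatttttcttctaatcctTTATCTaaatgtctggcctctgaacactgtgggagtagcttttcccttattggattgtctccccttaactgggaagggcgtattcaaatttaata
Mgst1: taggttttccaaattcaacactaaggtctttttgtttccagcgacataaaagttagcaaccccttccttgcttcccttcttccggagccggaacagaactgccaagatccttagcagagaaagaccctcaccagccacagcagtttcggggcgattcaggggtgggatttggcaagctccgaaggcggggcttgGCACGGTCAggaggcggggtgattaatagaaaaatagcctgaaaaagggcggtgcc
Ugt1a1: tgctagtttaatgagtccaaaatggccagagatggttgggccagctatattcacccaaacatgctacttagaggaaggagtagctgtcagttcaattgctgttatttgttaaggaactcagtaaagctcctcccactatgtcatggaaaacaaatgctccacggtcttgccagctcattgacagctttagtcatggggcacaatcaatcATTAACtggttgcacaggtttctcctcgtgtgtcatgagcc
Ugt2b35: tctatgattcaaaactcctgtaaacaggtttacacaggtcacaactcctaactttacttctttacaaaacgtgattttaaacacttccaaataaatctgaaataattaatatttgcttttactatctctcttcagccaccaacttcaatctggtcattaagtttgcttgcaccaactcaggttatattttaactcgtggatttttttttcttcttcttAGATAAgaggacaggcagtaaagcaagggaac

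Gsta3 held 1 antioxidant core, beginning 121 bases before its start, together with an HNF1 motif and a GATA motif, and Mgst1 held 1 antioxidant core, beginning 56 bases before its start. Gsta1 and Gsta2 each held a GCGTG within a few bases of the start, Ugt1a1 an HNF1 motif and Ugt2b35 a GATA motif. Over windows of 250 bases before to 50 after the start, the antioxidant core occurred in 12.4% of 32851 RefSeq promoters and in 5.88% of the 68 promoters found for 56 members. The GCGTG core occurred in 32.4% of all promoters and 17.6% of those of members, the HNF1 motif in 7.10% and 19.1%, the HNF4 motif in 1.42% and 1.47%, and the GATA motif in 11.2% and 17.6%. These matches are a description of letters and were not tested as sites.

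Of the 63 members, 34 had enough counts to be tested, and 6 of these 34 were higher in the double knockout at an adjusted p under 0.05 while 0 were lower (quasi-likelihood test of edgeR, Benjamini-Hochberg adjusted). Over all 14593 genes tested, 6.76% were higher and 6.54% lower by the same rule, against 17.6% and 0% of the members. Among these 6 genes Gsta2 could enter the test only by being higher in the double knockout, and without the genes that passed the filter on low counts through 1 genotype alone, 5 of 33 members (15.2%) and 5.98% of 14402 genes were higher. At an unadjusted p under 0.05, 9 members were higher and 0 lower, where 15.3% of all genes were higher and 15.3% lower. DESeq2 also called these 6 members higher and 0 lower, where 8.23% of its 18339 genes were higher and 7.6% lower. With limma-voom, run with quality weights here and below, 9 members were higher and 0 lower, adding Gsta4, Gsto1 and Ugt1a6a. By that fit 9.6% of all genes were higher and 10.4% lower. The 6 genes were Gsta1, Gsta2, Gsta3, Mgst1, Ugt1a1 and Ugt2b35, which makes 3 of 18 tested Gst members (2 of 17 without Gsta2), 1 of 3 Mgst, 2 of 7 Ugt and 0 of 6 Sult. Without Smad4 Vil-KO library 1, which stood apart, only Gsta1, Gsta3 and Mgst1 were higher and 0 members lower, where 3.41% of all genes were higher and 3.41% lower. The median log2 fold change was 0.10 over the 34 members and -0.00 over all genes tested, and 20 of the 34 members had a positive value. In 4 members (Gsta1, Gsta3, Gsto1 and Mgst1) all double-knockout values exceeded all Smad4 Vil-KO values and in 1 (Sult1b1) all were below, where 8.34% and 8.87% of all genes did so. A change in the number of cells of a type and a change in RNA per cell cannot be told apart in these bulk libraries.

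**Figure D1:**
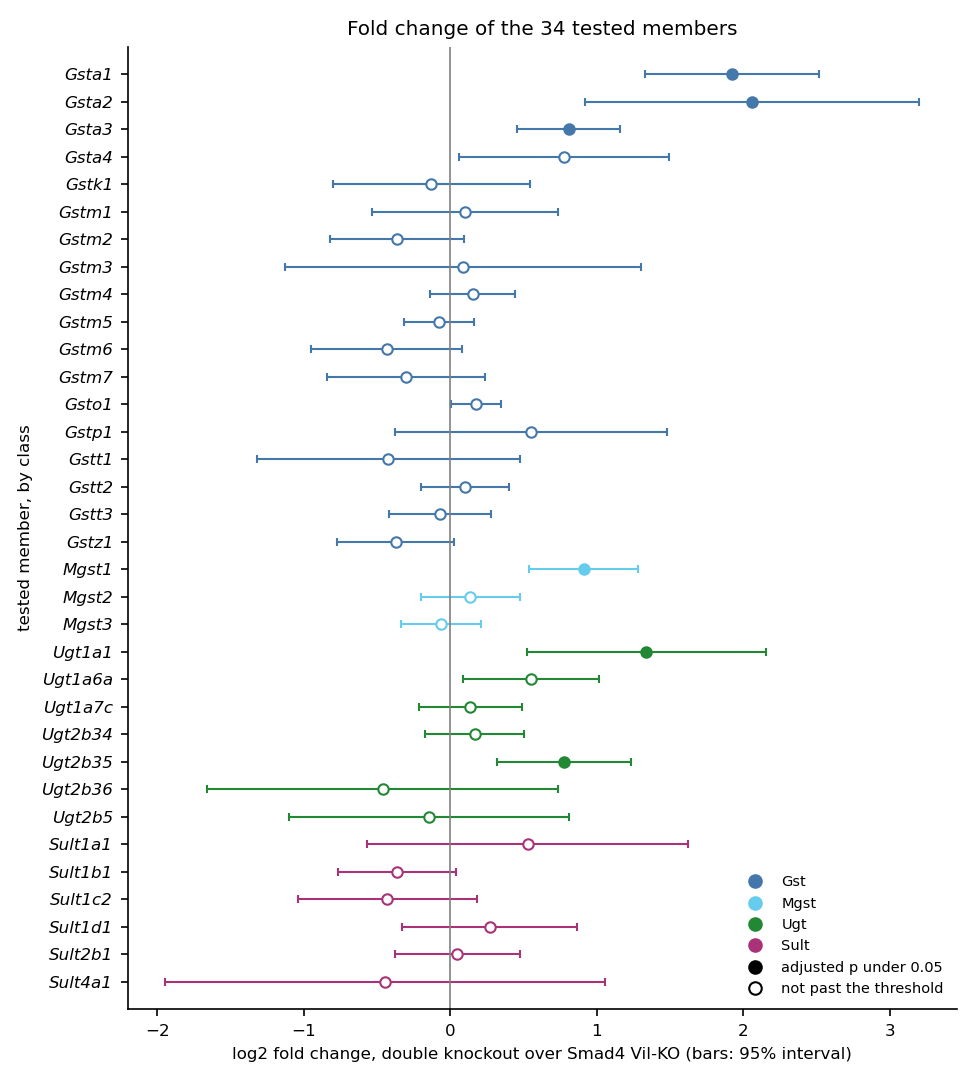
Log2 fold change of the 34 tested members (x axis, double knockout over Smad4 Vil-KO) by class (colour and order on the y axis), with bars for the 95% interval and filled points for an adjusted p under 0.05. The 6 filled points all lie to the right of 0, between 0.78 and 2.06, and the 6 Sult genes straddle 0.

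Among the glutathione S-transferases, the alpha class, which conjugates electrophiles and reduces lipid hydroperoxides, held Gsta1 and Gsta3, together with Gsta2, which passed the filter through the double knockout alone. Summed over its 4 genes, the class read 63.6, 87.6, 98.7 and 89.6 CPM in Smad4 Vil-KO and 122, 114, 223, 212 and 140 CPM in the double knockout, without overlap. Gsta1 read 4.74, 6.47, 10.1 and 6.34 CPM in Smad4 Vil-KO and 20.5, 22.5, 28.7, 40.4 and 19.4 CPM in the double knockout. Its lowest double-knockout library stood well above its highest Smad4 Vil-KO library, and the means were 6.90 ± 2.2 (SD, n = 4) and 26.3 ± 8.7 (SD, n = 5). Gsta1 rose by 1.93 on the log2 scale (SE 0.27, adjusted p = 0.00186, quasi-likelihood test of edgeR, Benjamini-Hochberg adjusted).

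Gsta2, an alpha enzyme with 95.5% of its residues shared with Gsta1, was rare, with 4, 3, 3 and 7 counts in Smad4 Vil-KO and 24, 21, 18, 18 and 4 counts in the double knockout. Library 5 of the double knockout lay within the Smad4 Vil-KO range and the other four lay above it. The log2 fold change was 2.06 (SE 0.52, adjusted p = 0.0264 in the same test). Gsta2 was the 1 member that exceeded the filter on low counts in 0 Smad4 Vil-KO libraries and 4 double-knockout libraries, so that it could enter the test only by being higher there, and its call adds nothing to the count. Under a stricter filter of 10 counts in all 9 libraries, 5 of 31 members were higher, where 6.38% of 12751 genes were higher and 6.48% lower, and Gsta2 was not among those tested. It was lost without Smad4 Vil-KO library 1, 2 or 3 (adjusted p = 0.0744, 0.0799 and 0.0921), and Gsta2 was not tested without any of double-knockout libraries 1 to 4.

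The sequence of Gsta1 is hard to tell from its relatives, since 89.7% of its 50-base windows (in GENCODE M21 transcripts) also occur in other annotated genes, among them Gsta2, Gm3776 and Gm10639. For Gsta2 that share was 47.4%, for Gsta3 and Gsta4 it was 0%, and how the authors' counting divided such reads was not given in the sources used here. Gm3776 is outside the rule and was looked up after the values of Gsta1 were seen. It gave 12, 42, 29 and 14 counts in Smad4 Vil-KO and 112, 90, 143, 146 and 56 in the double knockout (log2 fold change 2.34, SE 0.38, adjusted p = 0.00397 in the same test). Gm10639 gave 5, 1, 5 and 2 counts against 44, 40, 8, 4 and 2, with the high values in double-knockout libraries 1 and 2. Summed and tested as 1 gene, Gsta1 and Gsta2 gave a log2 fold change of 1.93 (SE 0.26, adjusted p = 0.00153), and the sum of Gsta1, Gsta2, Gm3776 and Gm10639 gave 2.03 (SE 0.25, adjusted p = 0.00101). The last sum was added after seeing the data. The share of the rise that belongs to each of these genes is uncertain.

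Gsta3, whose product in mice conjugates the epoxide of aflatoxin, read 32.4, 33.6, 42.9 and 46.0 CPM in Smad4 Vil-KO and 61.7, 49.4, 80.6, 79.5 and 67.5 CPM in the double knockout. Library 2 of the double knockout came closest to the Smad4 Vil-KO values without reaching them. Gsta3 rose by 0.81 (SE 0.16, adjusted p = 0.00993, quasi-likelihood test of edgeR, Benjamini-Hochberg adjusted).

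Gsta4, the alpha enzyme with high activity towards 4-hydroxynonenal, read 26.2, 47.4, 45.6 and 36.6 CPM in Smad4 Vil-KO and 37.8, 40.8, 112, 90.9 and 52.8 CPM in the double knockout. Libraries 1 and 2 of the double knockout lay within the Smad4 Vil-KO range and libraries 3, 4 and 5 above it. The difference of 0.78 (SE 0.33) did not pass (adjusted p = 0.135 in the same test), whereas it passed with limma-voom (adjusted p = 0.0361). With a term for Y-linked counts the log2 fold change of Gsta4 was 1.38 (SE 0.22, adjusted p = 0.00468). Gsta4, Gsta1 and Gsta2 lie on chromosome 9, the chromosome of Setd2, at 32.2 to 32.3 Mb from it on GRCm38.p6.

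**Figure D2:**
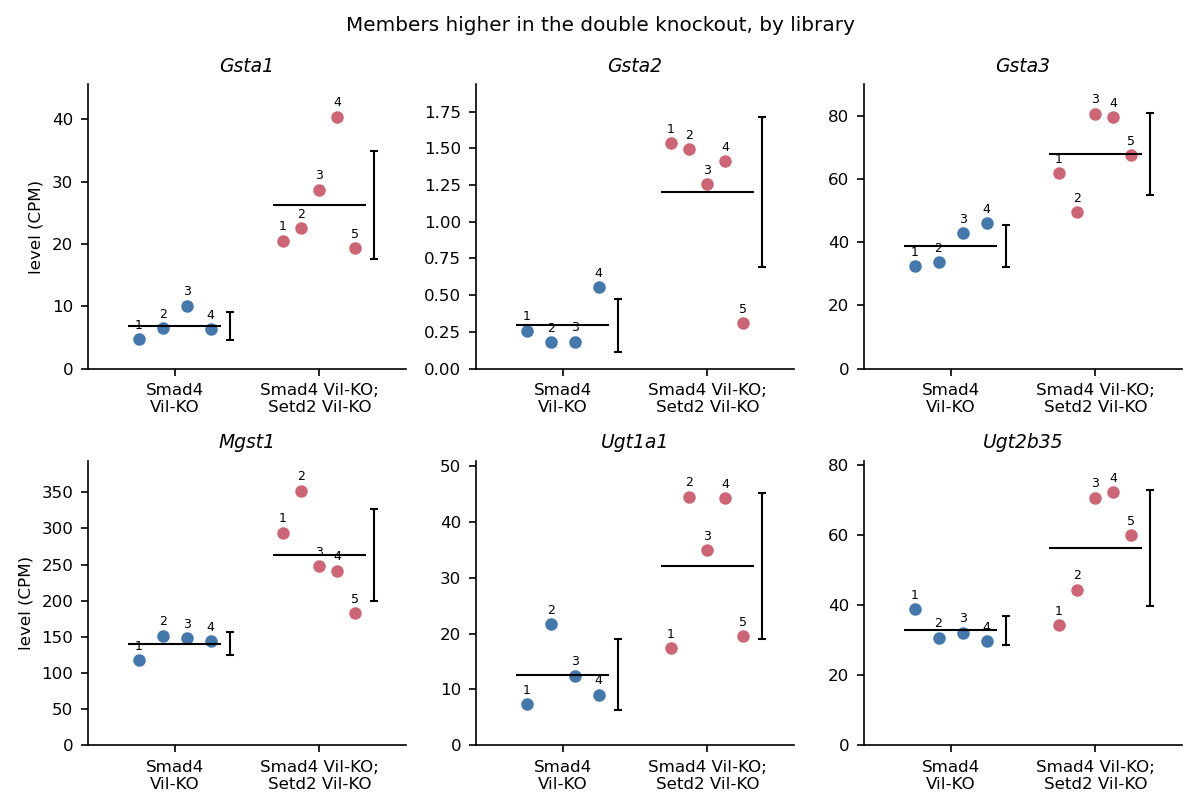
Level in CPM (y axis, from 0, own scale in each panel) of the 6 members called higher, for the 4 Smad4 Vil-KO and 5 double-knockout libraries (points, numbered by replicate), with the mean (line) and SD (bar at the right). Gsta1, Gsta3 and Mgst1 show no overlap between the groups, whereas Gsta2, Ugt1a1 and Ugt2b35 each have 1 double-knockout library or more inside the Smad4 Vil-KO range.

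The mu class, which conjugates epoxides and aromatic electrophiles, had 7 tested members, of which 0 passed in either direction. Gstm1, the most abundant of them per kb of transcript, read 152, 108, 149 and 123 CPM in Smad4 Vil-KO and 68.8, 92.7, 204, 149 and 199 CPM in the double knockout (log2 fold change 0.10, SE 0.29, adjusted p = 0.844 in the same test). The double-knockout values of Gstm1 thus lay on both sides of the Smad4 Vil-KO range. Gstm3 was the most divided of the class, with 46.4, 45.1, 53.6 and 37.3 CPM in Smad4 Vil-KO and 9.28, 13.2, 89.3, 77.3 and 53.7 CPM in the double knockout. Double-knockout libraries 1 and 2 held 0.203 and 0.290 of the Smad4 Vil-KO mean of Gstm3, and libraries 3, 4 and 5 all exceeded the highest Smad4 Vil-KO value. The log2 fold changes of the other mu genes ran from -0.43 (Gstm6) to 0.15 (Gstm4).

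No member of the other soluble classes passed in the edgeR test. Gsto1, an omega class enzyme that reduces dehydroascorbate and methylated arsenic, read 407, 378, 397 and 365 CPM in Smad4 Vil-KO and 417, 408, 460, 466 and 431 CPM in the double knockout. All 5 double-knockout values exceeded all 4 others, but the difference of 0.17 (SE 0.08) did not pass (adjusted p = 0.152, quasi-likelihood test of edgeR, Benjamini-Hochberg adjusted), whereas it passed with limma-voom (adjusted p = 0.0358). Gstp1, the pi class enzyme prominent in many human tumours, was low here and spread widely, with 1.41, 3.26, 3.19 and 7.21 CPM in Smad4 Vil-KO and 4.16, 5.68, 7.47, 7.14 and 2.94 CPM in the double knockout (log2 fold change 0.55, SE 0.42, adjusted p = 0.400). Gstp1 shares 97.1% of its residues with Gstp2 and 51.0% of its windows with other genes, and the sum of both gave 0.59 (SE 0.39, adjusted p = 0.326).

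The theta class, which includes enzymes that act on small halogenated compounds, had 3 tested members and 0 calls. Gstt3, the highest of them per kb of transcript, read 81.0, 65.3, 64.4 and 61.7 CPM against 49.5, 51.6, 85.2, 66.5 and 72.1 CPM (log2 fold change -0.07, adjusted p = 0.800). Gstt1 read 15.4 to 21.1 CPM in Smad4 Vil-KO and only 4.29 and 6.11 CPM in double-knockout libraries 1 and 2, against 16.3 to 21.1 CPM in libraries 3, 4 and 5. Gstk1, the kappa class enzyme of mitochondria and peroxisomes, showed the same split, with 39.7, 50.9, 55.2 and 41.1 CPM in Smad4 Vil-KO and 19.5, 25.1, 61.4, 52.1 and 56.0 CPM in the double knockout (log2 fold change -0.13, adjusted p = 0.809). Gstz1, which acts in tyrosine breakdown as maleylacetoacetate isomerase, read 34.7, 28.5, 31.8 and 31.3 CPM against 16.3, 18.6, 27.4, 29.4 and 30.3 CPM (log2 fold change -0.37, adjusted p = 0.190).

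Among the membrane-bound transferases, Mgst1, which detoxifies lipid peroxides in the endoplasmic reticulum and outer mitochondrial membrane, read 117, 152, 148 and 144 CPM in Smad4 Vil-KO. In the double knockout it read 294, 353, 247, 241 and 182 CPM. Unlike Gsta4 and Gstm3, Mgst1 was highest in double-knockout libraries 1 and 2, and the groups did not overlap. The means were 140 ± 16 (SD, n = 4) and 264 ± 64 (SD, n = 5) CPM. Mgst1 rose by 0.91 (SE 0.17, adjusted p = 0.00711, quasi-likelihood test of edgeR, Benjamini-Hochberg adjusted). Mgst2 and Mgst3, relatives that include glutathione peroxidase and leukotriene C4 synthase activity, differed by 0.14 (SE 0.15, adjusted p = 0.568) and -0.06 (SE 0.12, adjusted p = 0.762). Mgst3 had the highest level per kb of these genes and read 390, 360, 484 and 367 CPM in Smad4 Vil-KO and 309, 399, 451, 371 and 384 CPM in the double knockout. None of the 50-base windows of Mgst1, Mgst2 or Mgst3 occurred in another gene.

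The Ugt1a genes lie in 1 locus on chromosome 1, where each has its own 5′ exon and all share the remaining exons, so that reads from the shared exons cannot be given to a member. Ugt1a1, the enzyme that conjugates bilirubin, read 7.37, 21.7, 12.4 and 9.03 CPM in Smad4 Vil-KO and 17.3, 44.5, 34.9, 44.3 and 19.5 CPM in the double knockout. Double-knockout libraries 1 and 5 lay below Smad4 Vil-KO library 2 and above the other three. Ugt1a1 rose by 1.34 (SE 0.37, adjusted p = 0.0377, quasi-likelihood test of edgeR, Benjamini-Hochberg adjusted). This call of Ugt1a1 was lost when Smad4 Vil-KO library 1, 3 or 4 was left out (adjusted p = 0.0997, 0.102 and 0.0996) or double-knockout library 2, 3 or 4 (adjusted p = 0.0710, 0.0634 and 0.0773). Of the windows of Ugt1a1, 58.2% occurred in other genes.

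Ugt1a6a, which prefers planar phenols, read 18.9, 31.3, 29.2 and 20.8 CPM against 23.2, 33.7, 45.6, 42.6 and 38.8 CPM (log2 fold change 0.55, SE 0.21, adjusted p = 0.105, and 0.0307 with limma-voom). Of the windows of Ugt1a6a, 96% occurred in other genes. Ugt1a7c had the highest level per kb of the locus as counted. Of its windows, 54.2% occurred in other genes, so that this order may depend on how shared reads were divided. Ugt1a7c read 143, 152, 149 and 129 CPM in Smad4 Vil-KO and 107, 135, 201, 175 and 171 CPM in the double knockout (log2 fold change 0.14, SE 0.16, adjusted p = 0.584). Double-knockout library 1 was the lowest of all 9 for Ugt1a7c and libraries 3, 4 and 5 were the highest. Summed over its 8 members, the locus read 159 to 206 CPM in Smad4 Vil-KO and 149 to 282 CPM in the double knockout, and the sum tested as 1 gene gave 0.33 (SE 0.16, adjusted p = 0.201). Ugt1a1 passed while the total of its locus, to which it gave a small share of the counts, did not.

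Of the Ugt2b genes, whose products conjugate steroids and bile acids, Ugt2b34 was by far the most abundant per kb and read 565, 476, 477 and 495 CPM in Smad4 Vil-KO and 366, 580, 657, 585 and 636 CPM in the double knockout (log2 fold change 0.17, SE 0.15, adjusted p = 0.488). Library 1 of the double knockout lay below every other library for Ugt2b34. Ugt2b35 read 38.9, 30.6, 32.1 and 29.7 CPM in Smad4 Vil-KO and 34.2, 44.4, 70.6, 72.3 and 60.0 CPM in the double knockout, where only library 1 fell within the Smad4 Vil-KO range. Ugt2b35 rose by 0.78 (SE 0.21, adjusted p = 0.0324, quasi-likelihood test of edgeR, Benjamini-Hochberg adjusted), and 0.303% of its windows occurred in other genes. The call of Ugt2b35 was lost without Smad4 Vil-KO library 1, 2, 3 or 4 (adjusted p = 0.0510, 0.0855, 0.0926 and 0.0877) and without double-knockout library 3 or 4 (adjusted p = 0.0601 and 0.0663). Ugt2b36 and Ugt2b5 gave -0.46 (adjusted p = 0.599) and -0.14 (adjusted p = 0.851).

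No sulfotransferase passed in either direction. Sult1d1, which sulfates catecholamines and eicosanoids, was the most abundant per kb and read 243, 246, 225 and 275 CPM in Smad4 Vil-KO and 127, 232, 376, 386 and 371 CPM in the double knockout (log2 fold change 0.27, SE 0.27, adjusted p = 0.527, quasi-likelihood test of edgeR, Benjamini-Hochberg adjusted). Its double-knockout libraries 3, 4 and 5 lay above all Smad4 Vil-KO libraries and library 1 below them. Sult1b1, which sulfates thyroid hormones and small phenols, read 212, 210, 197 and 226 CPM in Smad4 Vil-KO and 90.5, 170, 189, 182 and 192 CPM in the double knockout. All 5 double-knockout libraries were below all 4 others, but the difference of -0.36 (SE 0.18) did not pass (adjusted p = 0.209).

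Sult1a1, the broad phenol sulfotransferase, varied more within each genotype than between them, with 132, 37.6, 50.2 and 52.6 CPM in Smad4 Vil-KO and 78.0, 173, 49.97, 35.1 and 154 CPM in the double knockout (log2 fold change 0.53, SE 0.50, adjusted p = 0.499). The 95% interval of this difference, -0.56 to 1.62, leaves room for a rise as large as that of Ugt1a1. Sult2b1, which sulfates cholesterol, read 18.2 to 30.4 CPM in Smad4 Vil-KO and 19.3 to 35.2 CPM in the double knockout (log2 fold change 0.05, adjusted p = 0.888). Sult4a1, a brain enzyme without a known substrate, was near the lower limit of the test at 0.159 to 1.48 CPM and 0.0698 to 1.02 CPM (log2 fold change -0.44, SE 0.68, adjusted p = 0.695).

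The remaining 29 members were not tested. Of these, 14 had 0 counts in all 9 libraries. They were Sult2a1 to Sult2a8, the hepatic hydroxysteroid sulfotransferases, with Sult3a1, Sult3a2, Ugt1a9, Ugt1a10, Ugt2a2 and Ugt2b37. If the reads of a gene were counted to it, this allows up to 3 counts or 0.178 to 0.238 CPM in a library. That limit need not hold where sequence is shared, since the counting of shared reads was not given. Of the windows of Ugt2a2, 93.6% occurred in other genes. For Ugt1a10, Sult2a2 and Ugt1a9 the shares were 63%, 62.1% and 62%, with lower shares in the rest. The other 15 reached at most 20 counts in a library, and 8 of them at most 3 counts. Ugt1a5 had 1, 2, 1 and 2 counts in Smad4 Vil-KO and 6, 12, 0, 2 and 1 in the double knockout. Ugt1a6b had 1, 1, 0 and 0 counts against 5, 2, 1, 0 and 0. The higher counts of both lay in double-knockout libraries 1 and 2. Gstt4 had 1, 1, 0 and 0 counts against 0, 0, 2, 3 and 4, with the counts in libraries 3, 4 and 5. At such low counts no difference was detectable for these genes.

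To compare levels between genes, CPM were divided by the length of the longest GENCODE M21 transcript in kb. In Smad4 Vil-KO, Mgst3 (365 ± 52 CPM per kb, SD, n = 4) and Gsto1 (327 ± 16) were the highest, followed by Mgst2 (210 ± 31), Mgst1 (120 ± 13), Ugt2b34 (117 ± 9.8), Gstm1 (103 ± 16) and Sult1d1 (102 ± 8.5). At the lower end stood Ugt2b36 (0.820), Gsta2 (0.337) and Sult4a1 (0.304 CPM per kb). Of the 33 pairs of neighbours in this order, 28 overlapped in their ranges over the 4 libraries. Neighbours were apart only between Gsto1 and Mgst2, Mgst2 and Mgst1, Sult1d1 and Sult1b1, Gstm2 and Gstk1, and Ugt2b5 and Ugt2b36. With the mean transcript length in place of the longest, Gsto1 (494 CPM per kb) came before Mgst3 (365), and 16 of the 34 ranks changed, by at most 4 places. In the double knockout Mgst1 read 226 ± 55 and Mgst2 231 ± 44 CPM per kb of the longest transcript (SD, n = 5), but 336 and 266 CPM per kb of the mean length, so that their order depends on the length used.

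**Figure D3:**
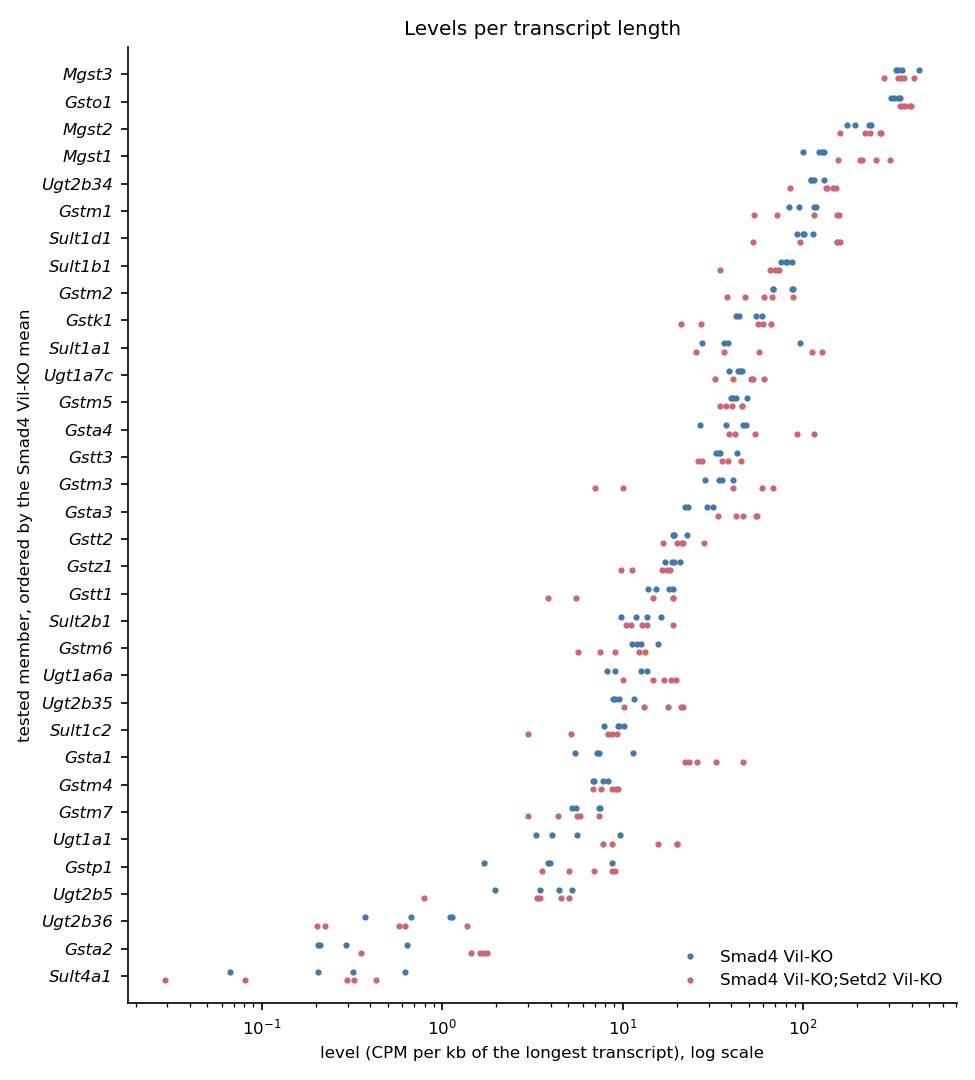
Level in CPM per kb of the longest transcript (x axis, log scale) of the 34 tested members in each of the 4 Smad4 Vil-KO (blue) and 5 double-knockout (red) libraries, ordered by the Smad4 Vil-KO mean. Levels span from 0.304 for Sult4a1 to 365 for Mgst3, and Gsta1, Gsta3 and Mgst1 show the red points clear to the right of the blue ones.

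The members also differed among the double-knockout libraries themselves. Relative to the Smad4 Vil-KO range of each of the 34 tested members, double-knockout library 1 was below in 20 and above in 5, and library 2 below in 13 and above in 11. Library 3 was above in 23 and below in 3, library 4 above in 15 and below in 5, and library 5 above in 15 and below in 2. Libraries 1 and 2 were both below the whole Smad4 Vil-KO range for 12 of the 34 members (35.3%), where 3895 of the 14593 genes tested (26.7%) were.

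These 12 members were 9 Gst genes, 5 of them of the mu class, together with Sult1b1, Sult1c2 and Ugt2b36, and 0 of the 12 passed the test between the genotypes. In 8 of the 12 (66.7%) libraries 3, 4 and 5 were not below the range, as in 924 of the 3895 genes (23.7%). In double-knockout libraries 1 and 2 Sult1c2 held 0.322 and 0.557 of its Smad4 Vil-KO mean, Gstt1 0.234 and 0.333, Gstk1 0.418 and 0.538, and Gstt3 0.726 and 0.757. These libraries were singled out after the values were seen, so that the counts are a description without a test. Over all genes tested, 23.8% were lower and 22.4% higher in both of libraries 1 and 2 than in libraries 3, 4 and 5. Of the 16 small intestinal enterocyte markers 5 were higher and 0 lower, namely Apoa1, Apoa4, Alpi, Slc5a1 and Enpep. Alpi, an enterocyte phosphatase, read 81.1 and 97.5 CPM in libraries 1 and 2 against 19.4 to 32.9 CPM in the other three, and Apoa4, an apolipoprotein, 17.4 and 37.5 CPM against 0 to 0.550 CPM. The sum of the 16 did not follow the split. It read 3028 and 3301 CPM in libraries 1 and 2 and 2604, 3440 and 1955 CPM in libraries 3, 4 and 5. Of the 8 stromal markers 3 were higher and 0 lower, namely Pdgfra, Acta2 and Des, which were too low to be tested. Acta2 and Des had at most 13 counts in any double-knockout library. The stromal sum did not follow the split, with 33.1 and 39.1 CPM in libraries 1 and 2 against 20.2 to 60.2 CPM. Other lists held markers that were lower. All 4 tuft cell markers were so, and they summed to 13.6 and 19.4 CPM in libraries 1 and 2, 31.2 to 77.3 CPM in libraries 3, 4 and 5 and 41.6 to 71.9 CPM in Smad4 Vil-KO. Of the 7 goblet cell markers 5 were so, and the sum of 4355 and 6270 CPM against 6724 to 13611 CPM rested on Clca1, without which it was 3898 and 5610 CPM against 5344 to 6882 CPM and the libraries overlapped. Of the 4 stem cell markers Olfm4 and Smoc2 were so, and the sum was 115 and 108 CPM against 171 to 241 CPM, or 110 and 92.3 CPM against 119 to 144 CPM without Olfm4. Of the 5 hepatocyte markers 3 were so, and Ttr gave 12.8 and 11.4 of the 15.2 and 13.1 CPM of their sum, against 26.2 to 31.8 CPM. Squamous and pan-epithelial sums were also apart, but not without Krt13 and Krt8. Of the 10 colonocyte markers 2 were so and 1 was higher, and their sum did not follow the split, with 5363 and 8838 CPM in libraries 1 and 2 and 7456 CPM in library 4, against 9471 to 11017 CPM in Smad4 Vil-KO. The part of these cell types in the levels of these members was not tested.

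**Figure D4:**
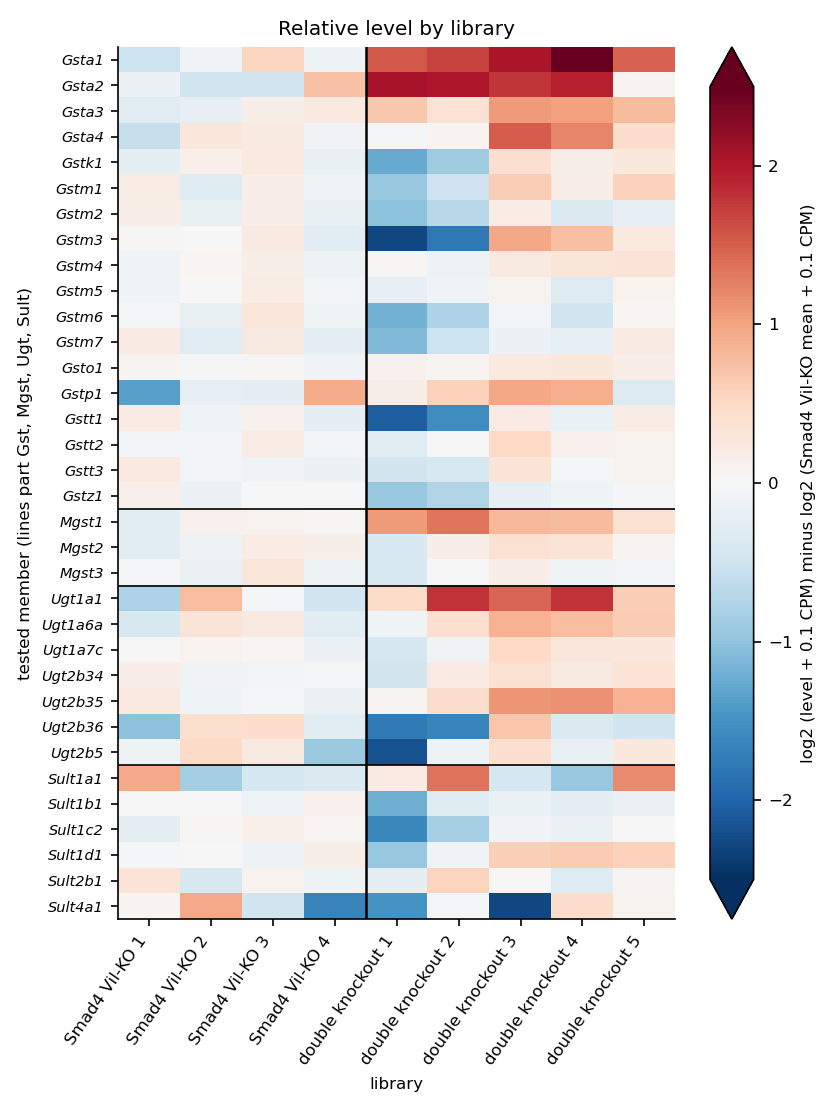
Colour gives the log2 ratio of each library's level to the Smad4 Vil-KO mean (0.1 CPM added to both) for the 34 tested members (rows, by class) in the 9 libraries (columns). Gsta1, Gsta3 and Mgst1 are above 0 in all 5 double-knockout columns, while Gstm3, Gstt1 and Gstk1 are lower in double-knockout columns 1 and 2 than in columns 3, 4 and 5.

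Among the 6 libraries without Y-linked counts (4 Smad4 Vil-KO against double-knockout libraries 3 and 4), 11 members were higher and 0 lower, where 9.29% of 15138 genes were higher and 10.1% lower. Beside the 6 members above these were Gsta4 (log2 fold change 1.38, adjusted p = 0.00185), Gstm3 (0.87, adjusted p = 0.00248), Sult1d1 (0.63, adjusted p = 0.00236), Ugt1a6a (0.82, adjusted p = 0.0158) and Ugt1a7c (0.40, adjusted p = 0.0202). Since this comparison leaves out libraries 1 and 2 together with library 5, Y-linked counts and the split described above cannot be told apart in it. The Y-linked libraries held no Smad4 Vil-KO sample, so that no comparison could be made within them. With a term for Y-linked counts over all 9 libraries, 6 members were higher and 0 lower, where 4.47% of all genes were higher and 4.33% lower. The 6 were Gsta1, Gsta3, Gsta4, Mgst1, Ugt1a1 and Ugt2b35. Gstm3 (adjusted p = 0.310), Sult1d1 (0.217), Ugt1a6a (0.0553) and Ugt1a7c (0.152) did not pass in that fit.

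The double knockout also carried more transcripts that mark the small intestine. Small intestinal enterocyte markers (16 genes, none at 0 throughout) summed to 1315 to 1626 CPM in Smad4 Vil-KO and 1955 to 3440 CPM in the double knockout, with 10 of 14 tested genes higher and 0 lower. Of these, Apoa1 (0 counts in every Smad4 Vil-KO library) and Fabp1 (0 to 3 counts) could enter the test only by being higher. Enteroendocrine markers summed to 53.6 to 82.8 CPM and 148 to 220 CPM, with 5 of 6 higher. Among these, Cck (7 to 11 counts in Smad4 Vil-KO) was under the filter's level there and likewise entered only by being higher. Goblet cell markers summed to 11882 to 31026 CPM and 4355 to 13611 CPM, with 1 of 7 lower. Hepatocyte markers summed to 19.6 to 34.1 CPM and 13.1 to 31.8 CPM, with Serpina1a at 0. Squamous markers were low, at 2.54 to 4.72 CPM in Smad4 Vil-KO and 0.639 to 1.88 CPM in the double knockout. The enterocyte and enteroendocrine sums were higher in all 5 double-knockout libraries, as Gsta1, Gsta3 and Mgst1 were, and their part in the differences of these members was not tested.

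Genes that supply the cosubstrates were read from lists, and the counts that follow stand against the 6.76% of all genes that were higher and the 6.54% that were lower. For glutathione supply and salvage, 5 of 20 tested genes were higher and 2 lower (median log2 fold change 0.19, against -0.00 over all genes). Ggt1, the surface enzyme that starts the breakdown of glutathione and its conjugates, read 0.705, 4.69, 4.90 and 2.62 CPM in Smad4 Vil-KO and 28.7, 34.9, 23.8, 52.8 and 9.52 CPM in the double knockout. Ggt1 thus rose by 3.20 (SE 0.55, adjusted p = 0.00509, quasi-likelihood test of edgeR, Benjamini-Hochberg adjusted) without overlap. Gsr, which regenerates reduced glutathione, read 151, 160, 156 and 132 CPM in Smad4 Vil-KO and 292, 206, 200, 230 and 192 CPM in the double knockout (log2 fold change 0.58, SE 0.13, adjusted p = 0.0145). Anpep, an aminopeptidase that acts after Ggt1 and is itself on the list of small intestinal markers, rose by 2.28 (adjusted p = 0.0407), with double-knockout libraries 3 and 5 at 5.44 and 3.72 CPM against 3.26 to 5.51 CPM in Smad4 Vil-KO. Anpep passed in 2 of the 9 fits that left out a library, and without Smad4 Vil-KO library 3 its adjusted p was 0.111. Lap3, a cytosolic aminopeptidase, rose by 0.43 (adjusted p = 0.0268) and passed in 7 of the 9 (adjusted p = 0.0893 without Smad4 Vil-KO library 3). Cbs, the entry to cysteine synthesis from homocysteine, and Oplah, the 5-oxoprolinase of the glutathione cycle, fell, with log2 fold changes of -0.76 (adjusted p = 0.0231) and -0.65 (adjusted p = 0.0389). Cbs passed in 6 of the 9 fits (adjusted p = 0.0777 without Smad4 Vil-KO library 3) and Oplah in 3 (adjusted p = 0.113 without Smad4 Vil-KO library 1).

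Among 19 other glutathione-binding proteins, 0 were higher and 1 lower, namely Hagh, the second enzyme of the glyoxalase route (log2 fold change -0.99, adjusted p = 0.0447, quasi-likelihood test of edgeR, Benjamini-Hochberg adjusted), which passed in 2 of the 9 fits that left out a library (adjusted p = 0.130 without Smad4 Vil-KO library 1). For UDP-glucuronic acid supply and removal, 1 of 11 was higher and 2 were lower. The gene that was higher was over the filter on low counts in 0 Smad4 Vil-KO libraries, so that it could enter the test only by being higher, and without it 0 of 10 were higher. It was Ugt8a, a UDP-galactose transferase of sphingolipid synthesis and no drug-conjugating enzyme, at 0.320, 0.653, 0.307 and 0.238 CPM against 2.18, 4.12, 3.001, 3.30 and 0.929 CPM (log2 fold change 2.78, SE 0.48, adjusted p = 0.00508). The 2 that were lower were the hexokinases Hk2 (-0.44, adjusted p = 0.0341) and Hk1 (-0.35, adjusted p = 0.0425), each of which passed in 2 of the 9 fits. Without Smad4 Vil-KO library 3 the adjusted p of Hk2 was 0.0765 and that of Hk1 0.133.

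For sulfate and PAPS supply and removal, 3 of 16 tested genes were higher and 1 lower. Suox, the mitochondrial enzyme that oxidises sulfite to sulfate, read 13.8, 21.4, 15.1 and 14.0 CPM in Smad4 Vil-KO and 39.5, 35.4, 67.1, 95.7 and 48.6 CPM in the double knockout. It rose by 1.83 (SE 0.29, adjusted p = 0.00340, quasi-likelihood test of edgeR, Benjamini-Hochberg adjusted). Slc13a1, the apical sodium-sulfate cotransporter, rose by 1.59 (SE 0.43, adjusted p = 0.0327), with double-knockout libraries 1 and 2 at 15.9 and 16.5 CPM below the highest Smad4 Vil-KO library (17.9 CPM). Slc13a1 passed in 4 of the 9 fits that left out a library, and without Smad4 Vil-KO library 3 its adjusted p was 0.104. Impad1, which removes the phosphoadenosine phosphate left by sulfotransferases in the Golgi, rose by 0.47 (SE 0.09, adjusted p = 0.00734). Arsb, a lysosomal sulfatase, fell by 0.30 on the log2 scale (adjusted p = 0.0399) and passed in 1 of the 9 (adjusted p = 0.133 without Smad4 Vil-KO library 1).

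Among 14 other phase II and quinone or carbonyl reducing enzymes, 2 were higher and 0 lower. Nqo1, the quinone reductase, read 47.5, 67.0, 79.3 and 57.1 CPM in Smad4 Vil-KO and 160, 139, 180, 137 and 120 CPM in the double knockout. Nqo1 rose by 1.23 (SE 0.16, adjusted p = 0.00121, quasi-likelihood test of edgeR, Benjamini-Hochberg adjusted), and the groups did not overlap. Cbr3, a carbonyl reductase, rose by 0.56 (adjusted p = 0.0475) and passed in 2 of the 9 fits that left out a library (adjusted p = 0.126 without Smad4 Vil-KO library 2).

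Of 15 tested transporters that carry conjugates or related organic anions out of or across the cell, 3 were higher (20%) and 2 lower (13.3%), against 6.76% and 6.54% of all genes. Abcc2, the apical pump for glutathione and glucuronide conjugates, read 0.640, 0.593, 1.10 and 1.11 CPM in Smad4 Vil-KO and 10.9, 17.3, 11.2, 18.2 and 4.03 CPM in the double knockout. Its lowest double-knockout library exceeded every Smad4 Vil-KO library, and Abcc2 rose by 3.84 (SE 0.45, adjusted p = 0.000823, quasi-likelihood test of edgeR, Benjamini-Hochberg adjusted). Abcb1b, a P-glycoprotein, rose by 1.501 (adjusted p = 0.0318) from 0.429 to 1.59 CPM in Smad4 Vil-KO, and passed in 3 of the 9 fits that left out a library (adjusted p = 0.0985 without Smad4 Vil-KO library 3). The prostaglandin transporter Slco2a1 rose by 0.85 (adjusted p = 0.0190) and passed in 7 of the 9 (adjusted p = 0.0687 without Smad4 Vil-KO library 3). Abcc3, the basolateral pump for glucuronides, read 319, 259, 292 and 254 CPM against 169, 217, 212, 197 and 239 CPM (log2 fold change -0.44, SE 0.11, adjusted p = 0.0245). Abcc3 passed in 6 of the 9 fits (adjusted p = 0.0792 without Smad4 Vil-KO library 3). The apical pumps Abcg2 (log2 fold change -0.09, adjusted p = 0.755) and Abcb1a (0.33, adjusted p = 0.178) did not pass. Abcc10 fell by 0.43 on the log2 scale (adjusted p = 0.00795).

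**Figure D5:**
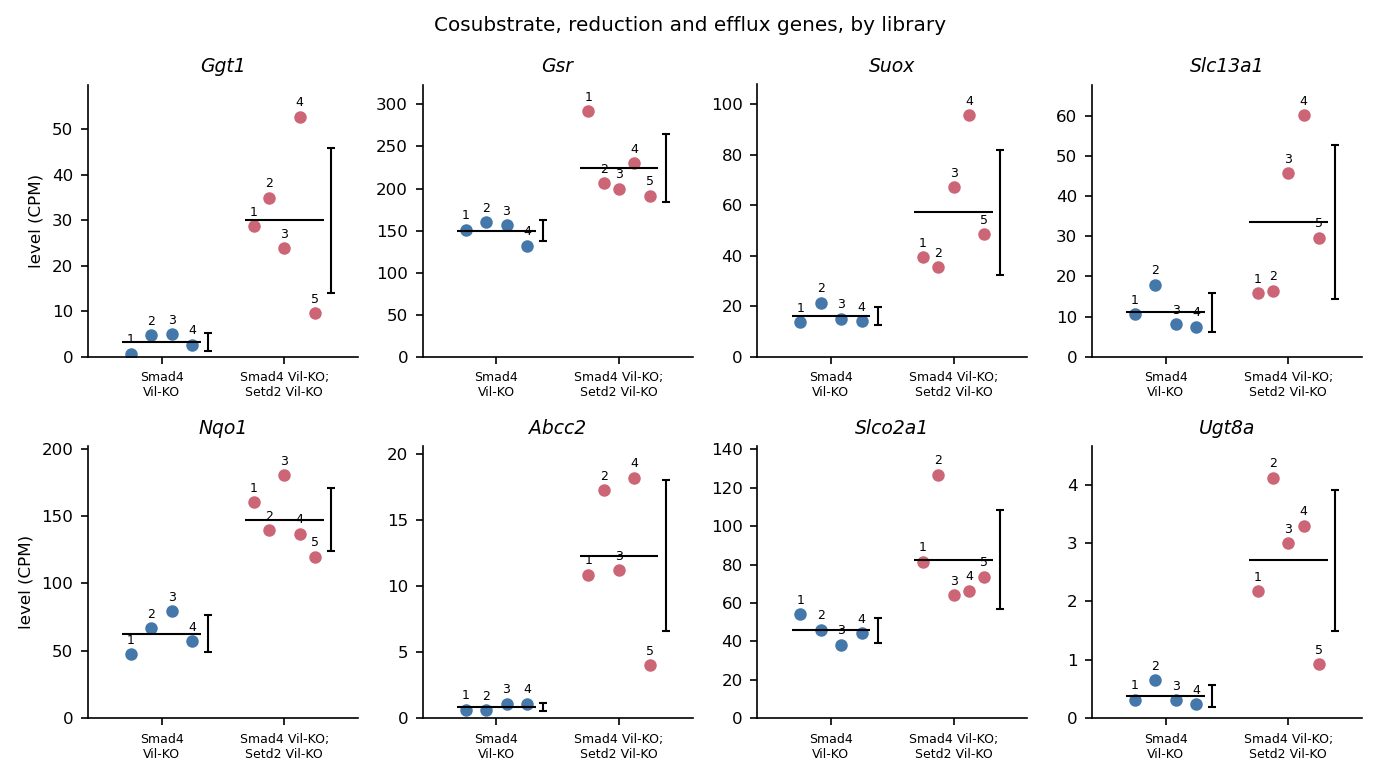
Level in CPM (y axis, from 0, own scale in each panel) of 8 genes of cosubstrate supply, reduction and transport in the 4 Smad4 Vil-KO and 5 double-knockout libraries (points, numbered by replicate), with the mean (line) and SD (bar at the right). In all panels but that of Slc13a1 every double-knockout point lies above every Smad4 Vil-KO point.

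Of 29 tested sensors and regulators, 3 were higher and 1 lower (median log2 fold change 0.05). Gata4, a factor of the proximal small intestine, was rare, with 0.320, 0.178, 0.307 and 0.159 CPM (2 to 5 counts) in Smad4 Vil-KO and 0.896, 0.497, 1.47, 1.96 and 0.929 CPM in the double knockout. Gata4 was over the filter in 0 Smad4 Vil-KO libraries and could enter the test only by being higher, so that 2 of 28 regulators were higher without it. Its log2 fold change was 2.20 (SE 0.47, adjusted p = 0.0144, quasi-likelihood test of edgeR, Benjamini-Hochberg adjusted). Tiparp, an Ahr target and repressor, rose by 0.43 (adjusted p = 0.0265) and Pparg, the fatty acid receptor, by 0.41 (adjusted p = 0.0316). Nr1h2, an oxysterol receptor, fell by 0.39 on the log2 scale (adjusted p = 0.0244). Of the 9 fits that left out a library, Gata4 passed in 5 and was not tested without double-knockout library 1, 3, 4 or 5. Tiparp passed in 5 (adjusted p = 0.0820 without Smad4 Vil-KO library 3), Pparg in 4 (adjusted p = 0.0943 without Smad4 Vil-KO library 1) and Nr1h2 in 4 (adjusted p = 0.0859 without Smad4 Vil-KO library 3).

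The receptors and factors best known for control of conjugation did not pass. Ahr gave -0.15 (SE 0.14, adjusted p = 0.496), Nfe2l2, which encodes Nrf2, 0.21 (SE 0.14, adjusted p = 0.327), Nr1i2, which encodes Pxr, -0.13 (SE 0.10, adjusted p = 0.386) and Hnf4a 0.05 (SE 0.09, adjusted p = 0.779). Among Ahr target genes only 2 of 7 were tested, Tiparp and Nqo1, and both were higher. Cyp1a1, the classic target, had 0 to 3 counts in Smad4 Vil-KO and 0 in every double-knockout library. Among 17 Nrf2 target genes, 3 were higher and 0 lower (median log2 fold change 0.23), namely Nqo1, Srxn1 (0.44, adjusted p = 0.0113) and G6pdx (0.31, adjusted p = 0.0352). G6pdx passed in 2 of the 9 fits that left out a library (adjusted p = 0.0976 without Smad4 Vil-KO library 4). Nqo1 was thus on 3 of the lists, and G6pdx on 2.

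Over these lists 27 genes passed, and 9 of them passed in every fit that left out 1 library: Gsr, Ggt1, Ugt8a, Impad1, Suox, Nqo1, Abcc2, Abcc10 and Srxn1. Without Ugt8a and Gata4, which passed the filter through the double knockout alone, these counts are 25 and 8. The other 18 of the 27 did not pass without 1 library or more, with an adjusted p of up to 0.133 (Hk1, without Smad4 Vil-KO library 3). One of them, Gata4, failed only by not being tested. Among the 34 tested members, Gsta1, Gsta3 and Mgst1 passed in all 20 alternative fits.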

How the data were processed

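RNA-seq was measured in IECs of 4 Smad4 Vil-KO samples and 5 double-knockout samples, grouped by the labels. The authors deposited whole-number counts per gene symbol, without normalization or pooling. Their processing notes name HISAT2 2.0 and mm10. The counting program, annotation and strand setting are not given in the sources used here. A further 27 symbols read as dates, so these genes stayed in the fit unnamed.

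Low genes were removed by filterByExpr (edgeR 4.0.16, minimum count 10, genotype as group) and libraries were scaled with TMM. The quasi-likelihood test of edgeR, Benjamini-Hochberg adjusted across 14593 genes, was run in R 4.3.3 without covariates. Alternatives used DESeq2 1.42.0 and limma-voom with quality weights (limma 3.58.1), other filters, scalings and thresholds, libraries left out and a replicate block. Leaving out double-knockout libraries 1 and 2, and the sum with Gm3776 and Gm10639, were chosen after seeing the data. Members and lists were chosen with earlier results of these data known. Named are members past an adjusted p of 0.05 or between 0.05 and 0.1 (0 members), the tested member with the highest mean CPM of each class, and members not tested with over 3 counts in some library and at most 3 in every library of a genotype, and from the lists up to 4 genes past the threshold in a direction with the largest changes, with Ahr, Nfe2l2, Nr1i2 and Hnf4a. Other genes named were chosen after their values were seen. The labels do not say whether libraries of a genotype came from separate mice, so p-values measure the spread between these libraries. The lowest chi-square per gene between 2 libraries of a genotype was 9.22, and all 9 were counted as replicates.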

Additional observations from a re-analysis of the deposited data

Results flagged for a closer look

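In 5 of 70 groups examined (68 of tested members and those of Setd2 in each genotype), 1 library lay far from the rest of its genotype by Dixon's criterion, which chance meets in about 5% of groups. Gsta2 was lowest in double-knockout library 5, at 0.310 CPM against 1.26 to 1.54 CPM in the other four. Gstt2 was highest in Smad4 Vil-KO library 3, at 51.5 CPM against 43.0 to 43.3 CPM. Sult1a1 was highest in Smad4 Vil-KO library 1, at 132 CPM against 37.6 to 52.6 CPM. Sult1b1 was lowest in double-knockout library 1, at 90.5 CPM against 170 to 192 CPM, and so was Ugt2b34, at 366 CPM against 580 to 657 CPM. The cause of these values was not tested.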

How the results depend on the processing

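The count of 6 members higher was 3 to 6 when each library was left out in turn (3 without Smad4 Vil-KO library 1 or 3 or double-knockout library 3 or 4, where 3.06% to 6.03% of all genes were higher), 3 at an adjusted p under 0.01, 11 among libraries without Y-linked counts and 11 without double-knockout libraries 1 and 2 (7.21% of all genes higher and 7.52% lower), an alternative chosen after seeing the data. Libraries 1 and 2 were chosen because they stood apart over all genes, members included, so that this count is no support. With limma-voom it was 9. For Gst it was 2 to 3 when each library was left out, 2 with 10 counts required in every library, 5 with limma-voom and 5 among libraries without Y-linked counts, against 3. For Ugt it was 0 to 3 when each library was left out, against 2. It was 1 with robust dispersion (6.59% of all genes higher and 6.46% lower) and 1 with the replicate block (5.39% and 5.69%). Among libraries without Y-linked counts it was 4, without libraries 1 and 2 it was 5, and at an adjusted p under 0.01 it was 0. For Sult it was 1 in both of those subsets of libraries, against 0. The count of members lower was 0 in all 20 alternative fits. Over all genes the 986 higher and 955 lower ran from 455 and 392 without Smad4 Vil-KO library 3 to 1510 higher with DESeq2 and 1524 lower among libraries without Y-linked counts. The cause of these changes was not tested. The replicate numbers did not pair the libraries: deviations of libraries with the same number correlated at -0.12, -0.13, 0.02 and 0.08, and none correlated best with its own number. With the replicate block 5 members were higher and 0 lower, where 5.39% of all genes were higher and 5.69% lower. Ugt2b35 was lost in that fit (adjusted p = 0.0926, edgeR's quasi-likelihood test). Gsta1, Gsta3 and Mgst1 passed in all 20 fits, Ugt1a1 and Ugt2b35 in 13 and Gsta2 in 10. Precision was limited by 4 and 5 libraries and, for the 29 members not tested, by low counts, whose cause was not tested.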
